A study of Mus musculus with 12 samples.

Results

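The oligodendrocyte lineage was followed through 10 genes whose rows were taken by symbol from the count table: Pdgfra, Cspg4, Olig1, Olig2, Sox10, Nkx2-2, Gpr17, Bcas1, Enpp6 and Myrf. They are 10 of the 21956 genes listed, each has 1 row, and all 10 passed the filter on low counts in every comparison. The libraries came from bulk brain tissue of 12 mice, 1 mouse a library and 3 mice in each of 4 groups. The tissue was taken around the hematoma or, in sham mice, by the same procedure without injury. Sham-Fabp4fl_fl and ICH-Fabp4fl_fl mice carried floxed Fabp4, the gene of a fatty acid binding protein. Sham-Fabp4CKO and ICH-Fabp4CKO mice carried in addition the tamoxifen-inducible Tmem119-creERT2 driver, which deletes the floxed gene in microglia. In the ICH groups, intracerebral hemorrhage was produced by collagenase placed in the right striatum and the tissue was taken 48 h later, whereas the sham mice had the operation with no collagenase. The time of sham tissue and the age of the sequenced mice were not given in the sources used here. Whether the floxed controls also had tamoxifen was not stated either.

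Oligodendrocyte precursors carry the PDGF receptor alpha and the NG2 proteoglycan on their surface and divide in response to PDGF. Under the lineage transcription factors they leave the cycle, pass through a committed stage marked by Gpr17, Bcas1 and Enpp6, and switch on myelin genes with Myrf. After focal brain injury precursors are known to react near the lesion, and white matter tracts of the striatum hold many mature oligodendrocytes that also express Olig1, Olig2, Sox10 and Myrf. None of the 10 genes is private to 1 stage in bulk tissue. Pdgfra is also expressed by perivascular fibroblasts, and Cspg4 by pericytes.

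The libraries held between 15650813 and 22406216 estimated counts. Fabp4, the targeted gene, had 46, 63 and 24 counts in the ICH-Fabp4fl_fl libraries against 5, 3 and 10 in the ICH-Fabp4CKO libraries. In the sham groups it had 1 to 2 counts in each Sham-Fabp4fl_fl library and 0 in each Sham-Fabp4CKO library, too few to check a deletion. Mitochondrial genes took 16.3% of the counts of ICH-Fabp4fl_fl mouse 1 and 7.90% to 11.9% of the others. Y-linked genes gave 1 read in ICH-Fabp4CKO mouse 1 and 1302 to 2251 in the other libraries, and the labels give no sex. Calls, and the larger differences among the 10 genes, are also given without these libraries where they changed, whereas list medians, marker sums, ratios and correlations include all 12 libraries.

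Sequence upstream of the start was held in the RefSeq tables (GRCm38.p6) for 5 of the 10 genes. The windows of Nkx2-2 and Enpp6 are shown because these genes had the smallest p-value among the 10 after ICH, Nkx2-2 in Fabp4fl_fl mice and Enpp6 in Fabp4CKO mice. Each window runs up to 250 bases before the start, 5′ to 3′ on the gene's strand, without bases that the annotation places in an exon. Capitals mark CANNTG, the E-box core that basic helix-loop-helix factors such as Olig1 and Olig2 can bind, searched on both strands.
Nkx2-2 (chr2:147186456-147186652, minus strand): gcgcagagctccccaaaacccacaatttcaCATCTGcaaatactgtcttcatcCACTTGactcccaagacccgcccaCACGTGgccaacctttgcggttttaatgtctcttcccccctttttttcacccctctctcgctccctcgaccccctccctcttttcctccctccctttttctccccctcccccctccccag
Enpp6 (chr8:46986637-46986886, plus strand): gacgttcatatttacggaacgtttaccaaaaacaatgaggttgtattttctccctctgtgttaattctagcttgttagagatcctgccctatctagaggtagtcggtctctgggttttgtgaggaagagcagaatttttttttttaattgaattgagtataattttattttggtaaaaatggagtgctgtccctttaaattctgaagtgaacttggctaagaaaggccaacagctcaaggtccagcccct
The Nkx2-2 window held 3 matches and 56.3% G and C, and the Enpp6 window held 0 matches and 38.4% G and C. Of all 32851 promoters in the table, 66.2% held CANNTG in the 250 bases before the start, so a match by itself is common.

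Levels differed widely between the 10 genes in Sham-Fabp4fl_fl mice. Per kilobase of exon, the mean level was highest for Bcas1 (97.8 CPM per kb, CPM being the count scaled to the size of its library) and Olig1 (89.1), whose ranges over the 3 mice overlapped. Sox10 followed at 28.0 and Olig2 at 19.7, with separate ranges. Myrf (17.0) and Gpr17 (16.8) overlapped each other and the range of Olig2. Pdgfra stood at 7.26. Enpp6 (2.90), Nkx2-2 (2.47) and Cspg4 (2.12) were the lowest, and the range of Enpp6 took in the other 2. Olig1 and Olig2, both on chromosome 16, thus differed in level although they were alike across libraries. In ICH-Fabp4fl_fl mice Bcas1 (246 CPM per kb) stood above Olig1 (143) without overlap, and in ICH-Fabp4CKO mice again (137 against 64.2).

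The first comparison asked which lineage genes answered ICH in mice with intact Fabp4. Of the 10 genes, 5 rose (Cspg4, Olig1, Sox10, Nkx2-2 and Bcas1) and 0 fell, while 26.2% of the 14719 genes tested rose and 19.3% fell (45.6% in all). At an unadjusted p under 0.05 there were 7 of the 10, beside 55.2% of all genes. The median log2 fold change was 0.72 over the 10 genes and 0.02 over all genes tested. For 9 of the 10, every ICH mouse lay above every sham mouse, and 61.4% of all genes tested had groups that did not overlap in one direction or the other. In bulk tissue, more cells of the lineage and more RNA per cell cannot be told apart. The tests are edgeR's quasi-likelihood fits, p-values were adjusted by the Benjamini-Hochberg method over all genes tested, and levels are given as CPM after TMM scaling, in the order of mouse 1, 2 and 3.

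**Figure D1:**
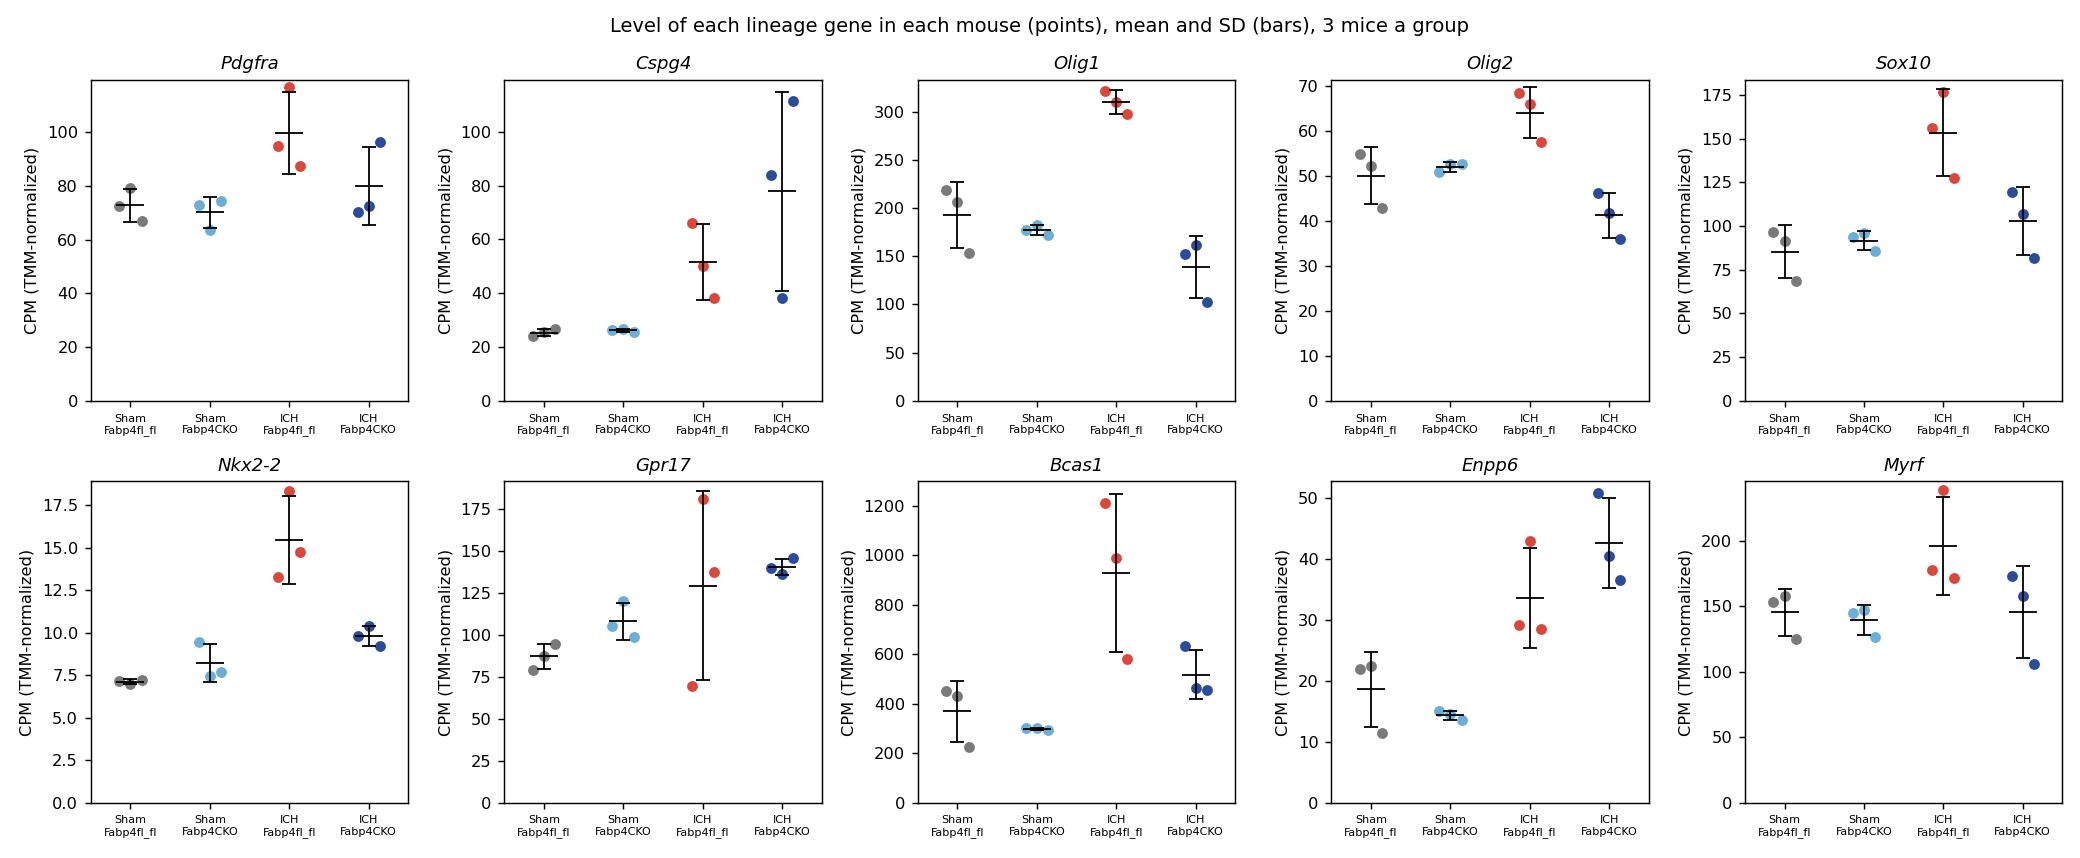
Level of each of the 10 lineage genes in CPM (vertical axes, each from 0) in each mouse (points), with mean and SD (bars) of 3 mice a group. The means of Olig1 and Olig2 were highest in ICH-Fabp4fl_fl mice and lowest in ICH-Fabp4CKO mice, whereas Enpp6 was high in both ICH groups.

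Of the surface genes, Pdgfra, the receptor for PDGF ligands, stood at 72.3, 79.1 and 66.8 CPM in Sham-Fabp4fl_fl mice and at 94.9, 117 and 87.4 CPM in ICH-Fabp4fl_fl mice. The groups did not overlap, but the log2 fold change of 0.41 (SE 0.15) missed the threshold (adjusted p = 0.0607). It passed with the replicate block (0.0410), the fit of all 12 libraries (0.0340) and without ICH-Fabp4fl_fl mouse 3 (0.0376), and its adjusted p-values ran up to 0.262 over all alternatives. Cspg4, the NG2 proteoglycan, was at 24.0, 25.5 and 26.5 CPM in sham mice and at 66.3, 49.9 and 38.4 CPM after ICH. It rose 1.97-fold (log2 0.98, SE 0.19, adjusted p = 0.00678), with the sham mice close together and the ICH mice spread. The counts of Cspg4 to Pdgfra within a library stood at 0.322 to 0.397 in sham mice and at 0.699, 0.428 and 0.439 after ICH.

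Pericyte and fibroblast markers moved with Cspg4 in this comparison, and their part in the result was not tested. All 7 pericyte markers rose, their sum going from 199 to 264 CPM in Sham-Fabp4fl_fl mice to 526 to 831 CPM in ICH-Fabp4fl_fl mice. All 5 perivascular fibroblast markers rose as well, from 29.3 to 52.2 CPM to between 96.8 and 408 CPM. No marker of either list was at 0 in any group. Across the 12 libraries, which share the group differences, the log2 level of Cspg4 had a Pearson r of 0.98 with the fibroblast sum, 0.95 with the microglia sum, 0.93 with the infiltrating myeloid sum, 0.91 with the pericyte sum, -0.90 with the neuronal sum and 0.07 with the oligodendrocyte sum (Mbp, Mog, Mag and Cldn11).

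Among the transcription factors, Nkx2-2, a homeodomain factor that promotes differentiation of precursors, was at 7.13, 6.96 and 7.23 CPM in Sham-Fabp4fl_fl mice and at 13.3, 18.3 and 14.8 CPM after ICH. It rose 2.12-fold (log2 1.08, SE 0.18, adjusted p = 0.00373), the smallest p-value of the 10 genes in this comparison. Sox10, which is needed for myelin gene expression, went from 96.5, 91.3 and 68.3 CPM to 156, 177 and 128 CPM. It rose 1.75-fold (log2 0.80, SE 0.19, adjusted p = 0.0126), and every ICH mouse was above every sham mouse.

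Olig1, a helix-loop-helix factor of precursors and oligodendrocytes, was at 219, 206 and 153 CPM in sham mice and at 322, 310.1 and 297 CPM after ICH. It rose 1.56-fold (log2 0.65, SE 0.18, adjusted p = 0.0224), with the 3 ICH mice close together. Olig2, its neighbour and the factor that specifies the lineage, was at 54.9, 52.1 and 42.8 CPM in sham mice and at 68.4, 65.8 and 57.6 CPM after ICH. Its groups did not overlap, yet the log2 fold change of 0.32 (SE 0.14) did not pass (adjusted p = 0.104). Within a library, the counts of Olig1 to Olig2 were 3.58 to 3.98 in sham mice and 4.70 to 5.16 after ICH.

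Genes of committed and newly formed cells varied most among mice. Bcas1, which marks early myelinating oligodendrocytes and is also expressed in mature ones, was at 451, 430.0 and 227 CPM in Sham-Fabp4fl_fl mice and at 1211.5, 991 and 582 CPM after ICH. Its log2 fold change of 1.28 (SE 0.35, adjusted p = 0.0213) was the largest of the 10 genes, and the lowest ICH mouse was above the highest sham mouse. Enpp6, a choline-specific phosphodiesterase of newly formed oligodendrocytes, was at 21.8, 22.4 and 11.5 CPM in sham mice and at 29.1, 43.0 and 28.5 CPM after ICH. The groups did not overlap, and the log2 fold change of 0.81 (SE 0.29) did not pass (adjusted p = 0.0520). It passed with DESeq2 (0.0417), the replicate block (0.0201), the fit of all 12 libraries (0.0186) and without ICH-Fabp4fl_fl mouse 3 (0.0475), and its adjusted p-values ran up to 0.202 over all alternatives. Sham-Fabp4fl_fl mouse 3 was the lowest of its group for Bcas1 and for Enpp6.

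Gpr17, a receptor that marks committed precursors and restrains their maturation, was the 1 gene whose groups overlapped. It was at 79.4, 87.5 and 94.7 CPM in sham mice and at 69.3, 181 and 138 CPM after ICH, so that ICH-Fabp4fl_fl mouse 1 lay below every sham mouse. Its log2 fold change was 0.54 (SE 0.33, adjusted p = 0.211), and without that mouse, the library with the high mitochondrial share, it was 0.84 (adjusted p = 0.0117). Exons of Gpr17 overlap those of Lims2 on the opposite strand, and the library kit does not mark strand, so reads of the overlap may be assigned to either gene. Myrf, the factor that drives the myelin programme, was at 154, 158 and 125 CPM in sham mice and at 177, 239 and 171 CPM after ICH. Its log2 fold change of 0.39 (SE 0.19) did not pass (adjusted p = 0.121), although the groups did not overlap.

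The calls of Cspg4 and Nkx2-2 held under all 14 alternative settings and left-out mice. Without ICH-Fabp4fl_fl mouse 2 only these 2 of the 10 passed, and the calls of Olig1, Sox10 and Bcas1 were lost. Calls over all genes fell as well, from 3862 higher and 2845 lower (14719 tested) to 2716 and 1465 (14910 tested). Without Sham-Fabp4fl_fl mouse 2 or mouse 3, 3 genes passed (Cspg4, Sox10 and Nkx2-2). All genes called higher then numbered 2633 or 3032, and those called lower 1707 or 2256. Without ICH-Fabp4fl_fl mouse 1, Bcas1 was at a log2 fold change of 1.06 (adjusted p = 0.0567) and 5 genes passed, Gpr17 in its place, while Cspg4 was at 0.77 and Nkx2-2 at 1.18. Of all genes, 3119 were then called higher and 2275 lower. Olig1 was no longer called when any 1 Sham-Fabp4fl_fl mouse was left out, and its log2 fold change then stayed at or above 0.46.

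The other genes of the lineage moved unevenly after ICH in Fabp4fl_fl mice. Of 12 further precursor genes, 3 rose and 0 fell, with Matn4 the largest (log2 1.77) and Vcan, a proteoglycan of the precursor's surroundings, at 1.56. Of 10 genes of the differentiation stage, 6 rose, led by Lims2 (1.03), whose exons overlap those of Gpr17. The 1 that fell was the transcription factor Tcf7l2 (-2.67), which thalamic neurons also express. Of 12 myelin genes, 4 rose and 0 fell, led by Cldn11 (1.52), a tight junction protein of myelin. The median log2 fold changes of these lists were 0.35, 0.69 and 0.57, beside 0.02 over all genes. Beside the 26.2% of all genes that rose, the counts of precursor and myelin genes that rose lie near the background.

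Signals that act on precursors were measured in the same libraries. Of 14 ligands and receptors, 4 rose and 2 fell, shares near the 26.2% and 19.3% of all genes. Cxcr4, the receptor for Cxcl12, rose most (log2 3.42) and is also abundant on leukocytes. Fgf2, a mitogen of precursors, rose by 2.69 on the log2 scale and Pdgfb, a ligand of both PDGF receptors, by 1.44. Shh, a ventral patterning signal, fell by 1.02. Of 10 inhibitors of differentiation, 2 rose and 3 fell, with the Notch ligand Jag1 at 1.46 and the Nogo receptor partner Lingo1, a gene that neurons also express, at -2.07. The sum of 6 neuronal markers was 3404 to 4050 CPM in Sham-Fabp4fl_fl mice and 1046 to 3091 CPM in ICH-Fabp4fl_fl mice, and its part in the falls was not tested.

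The second comparison repeated the contrast of ICH and sham in mice without microglial Fabp4. Of the 10 genes, 3 rose (Cspg4, Bcas1 and Enpp6) and 0 fell, while 24.5% of the 14737 genes tested rose and 11.1% fell (35.6% in all). At an unadjusted p under 0.05 there were 5 of the 10, beside 52.4% of all genes. The share of the 10 genes that rose was thus near that of all genes. The median log2 fold change was 0.22 over the 10 genes and 0.01 over all genes. In 4 of the 10 every ICH mouse was above every sham mouse (Cspg4, Gpr17, Bcas1 and Enpp6) and in 2 below (Olig1 and Olig2), beside 61.6% of all genes tested without overlap.

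**Figure D2:**
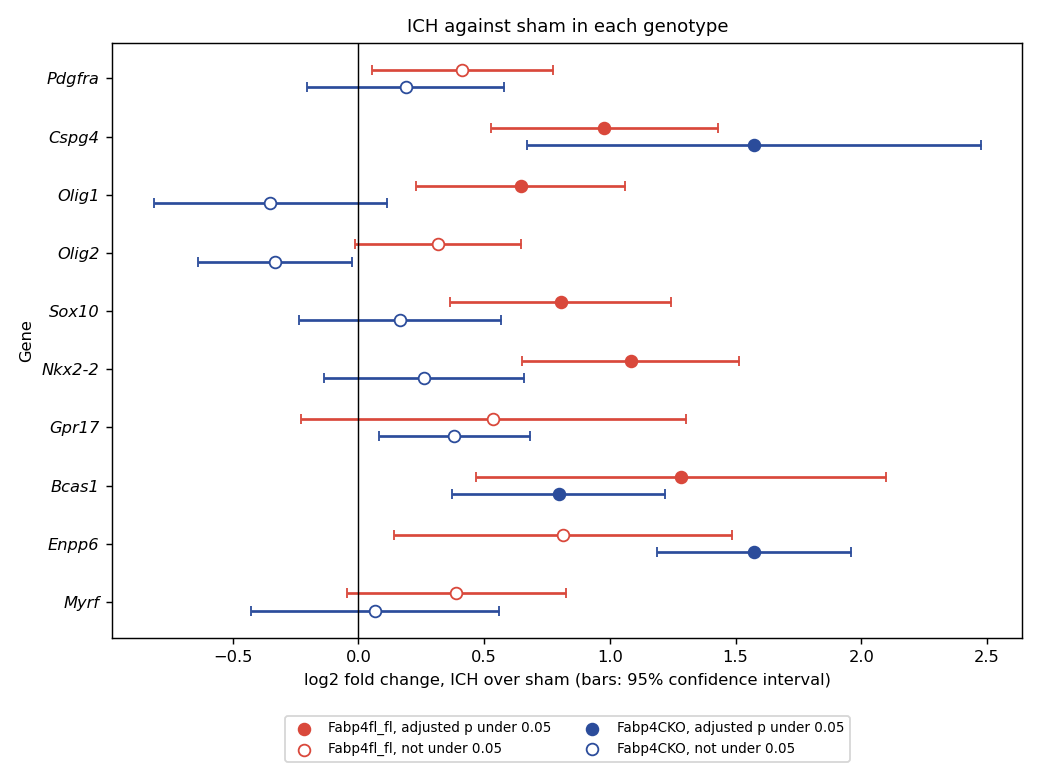
Log2 fold change of ICH over sham (horizontal axis) for the 10 lineage genes (vertical axis) in Fabp4fl_fl and Fabp4CKO mice, with 95% confidence intervals as bars and filled points for adjusted p under 0.05, 3 mice a group. The estimates of Olig1 and Olig2 lay above 0 in Fabp4fl_fl mice and below 0 in Fabp4CKO mice, while Cspg4 and Bcas1 were filled in both.

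Enpp6 had the smallest p-value of the 10 genes here. It was at 14.98, 14.5 and 13.5 CPM in Sham-Fabp4CKO mice and at 50.7, 40.4 and 36.4 CPM in ICH-Fabp4CKO mice, with a wide gap between the groups. It rose 2.98-fold (log2 1.57, SE 0.16, adjusted p = 0.00488) and was called under all 14 alternatives. Without ICH-Fabp4CKO mouse 1, the library with 1 Y-linked read, it was the only one of the 10 still called, at a log2 fold change of 1.42 (adjusted p = 0.0220). Infiltrating myeloid markers moved with it, their sum going from 26.9 to 33.6 CPM in Sham-Fabp4CKO mice to between 234 and 858 CPM after ICH, and over the 12 libraries the Pearson r of the log2 levels was 0.89. Other sums were nearly as close, with r of 0.87 for astrocyte, 0.87 for microglia, 0.81 for fibroblast and 0.79 for pericyte markers. It was 0.35 for the oligodendrocyte sum and -0.68 for the neuronal sum. The part of any of these cells in the result was not tested.

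Cspg4 was at 26.2, 26.7 and 25.7 CPM in Sham-Fabp4CKO mice and at 84.1, 38.2 and 111 CPM in ICH-Fabp4CKO mice. It rose 2.98-fold (log2 1.57, SE 0.37, adjusted p = 0.0252), and ICH-Fabp4CKO mouse 2 was far below the other 2. All 5 fibroblast markers and 6 of the 7 pericyte markers rose here too. That mouse had the lowest fibroblast sum of its group, 75.2 CPM against 1140 and 2320 CPM in the other 2, and the highest neuronal sum, 3546 CPM. Without ICH-Fabp4CKO mouse 1 the log2 fold change of Cspg4 was 1.51 (adjusted p = 0.0870). Bcas1 was at 299.7, 303 and 292 CPM in sham mice and at 631, 463 and 456 CPM after ICH, and every ICH mouse was above every sham mouse. It rose 1.74-fold (log2 0.80, SE 0.18, adjusted p = 0.0204), and without ICH-Fabp4CKO mouse 1 the log2 fold change was 0.62 (adjusted p = 0.0612).

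Olig1 and Olig2 lay on the other side of 0. Olig1 was at 177, 182 and 173 CPM in Sham-Fabp4CKO mice and at 153, 161 and 103 CPM in ICH-Fabp4CKO mice, and Olig2 was at 50.7, 52.6 and 52.6 CPM against 46.0, 41.6 and 36.0 CPM. Every ICH mouse was below every sham mouse for both genes. The log2 differences of -0.35 (SE 0.19, adjusted p = 0.176) and -0.33 (SE 0.13, adjusted p = 0.0783) did not pass. Without ICH-Fabp4CKO mouse 2 both passed, at -0.47 (adjusted p = 0.0380) and -0.34 (adjusted p = 0.0444), and 6 of the 10 genes were called, while 5203 of all genes were then higher and 4896 lower. Leaving out any 1 Sham-Fabp4CKO mouse, or ICH-Fabp4CKO mouse 1, left 1 call, that of Enpp6, and leaving out ICH-Fabp4CKO mouse 3 left 2. In the fits that left 1 call, 701 to 1435 of all genes were higher and 50 to 148 lower. Without ICH-Fabp4CKO mouse 3 these were 2350 and 697, against 3605 and 1642 with all mice.

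Gpr17 was at 106, 120.4 and 98.7 CPM in Sham-Fabp4CKO mice and at 140.1, 137 and 146 CPM in ICH-Fabp4CKO mice. All ICH mice were above the sham mice and close together, and the log2 fold change was 0.38 (SE 0.12, adjusted p = 0.0540). Nkx2-2 was at 9.48, 7.48 and 7.68 CPM against 9.83, 10.4 and 9.24 CPM, with overlap (log2 0.26, SE 0.16, adjusted p = 0.230). Sox10 was at 93.7, 95.9 and 85.5 CPM against 119.8, 107 and 81.7 CPM, and Pdgfra at 72.7, 63.6 and 74.3 CPM against 70.3, 72.6 and 96.5 CPM. Myrf was at 145, 147 and 126 CPM against 173, 158 and 106 CPM. In these 3 genes the groups overlapped, and the log2 differences were 0.17, 0.19 and 0.07.

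In the wider lists the counts are to be read beside the 24.5% of all genes that rose and the 11.1% that fell. Of the 12 further precursor genes 4 rose, near that background, again with Matn4 the largest (log2 1.95), and 1 fell, the AMPA receptor auxiliary subunit Cacng4 (-1.12). Of the differentiation-stage genes 5 rose, led by Tns3 (1.46), which marks newly forming oligodendrocytes, and Tcf7l2 fell (-1.21). Of the 12 myelin genes 0 rose and 1 fell, Mal (-0.99), a proteolipid of compact myelin. Among the ligands and receptors 6 rose and 3 fell. Igf1, a survival signal for the lineage that reactive microglia also make, rose by 6.14 on the log2 scale, Pdgfa, the ligand of Pdgfra, rose by 0.42, and Shh fell by 2.12. Of the inhibitors 4 rose and 0 fell, led by Jag1 (1.69).

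The third comparison set the genotypes side by side after ICH, and it shares its ICH-Fabp4fl_fl libraries with the first and its ICH-Fabp4CKO libraries with the second. By edgeR, 0 of the 10 genes and 0% of the 14600 genes tested passed. At an unadjusted p under 0.05 there were 5 of the 10 (Olig1, Olig2, Sox10, Nkx2-2 and Bcas1, all lower in ICH-Fabp4CKO mice) and 12.2% of all genes. Of the 10, 7 had a log2 difference below 0, and the median was -0.45 over the 10 and 0.06 over all genes. Every ICH-Fabp4CKO mouse was below every ICH-Fabp4fl_fl mouse for the transcription factors Olig1, Olig2, Sox10 and Nkx2-2, and 19.7% of all genes tested had groups that did not overlap. The other 6, Myrf included, overlapped.

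Olig1 had the largest difference. Its levels given above run from 297 CPM upward in ICH-Fabp4fl_fl mice and from 161 CPM downward in ICH-Fabp4CKO mice, with no mouse in between. The log2 difference was -1.10 (SE 0.22, unadjusted p = 0.00184, adjusted p = 0.295). For Olig2 it was -0.58 (SE 0.15, unadjusted p = 0.00799, adjusted p = 0.313). DESeq2 called these 2 genes and no other of the 10 (adjusted p = 0.000479 and 0.0254), as did an edgeR fit of all 12 libraries together (adjusted p = 0.0222 and 0.0417). Over all alternatives the adjusted p-values ran from 0.000479 to 0.686 for Olig1 and from 0.0254 to 0.686 for Olig2. Over all genes DESeq2 called 228 higher and 288 lower. With any 1 mouse left out, edgeR called 0 of the 10. Without ICH-Fabp4CKO mouse 1 the log2 differences were -1.18 and -0.66, and without ICH-Fabp4fl_fl mouse 1 they were -1.10 and -0.55.

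For Nkx2-2 the log2 difference was -0.60 (SE 0.20, adjusted p = 0.350), for Bcas1 -0.78 (SE 0.31, adjusted p = 0.392) and for Sox10 -0.52 (SE 0.21, adjusted p = 0.396). Enpp6 (0.40, 95% interval -0.14 to 0.94) and Cspg4 (0.66, -0.31 to 1.62) had estimates above 0 with intervals that include it. Pdgfra (-0.27, -0.75 to 0.21), Myrf (-0.37, -0.97 to 0.22) and Gpr17 (0.17, -0.67 to 1.01) had intervals on both sides of 0 as well. Without ICH-Fabp4fl_fl mouse 1 the difference of Bcas1 was -0.57 and that of Gpr17 -0.15, on the other side of 0. These intervals leave room for differences of over 1.5-fold in 1 direction or the other for each of the 5 genes. Beside the estimate of Cspg4, 2 of the 7 pericyte markers lay above 0 and 5 below (median log2 difference -0.32). Of the 5 fibroblast markers, 4 lay above 0 and 1 below (median 2.68). No marker of either list passed.

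The myelin genes lay below 0 together after ICH in the knockout. All 12 had a log2 difference below 0 with a median of -1.09, 11 of them at an unadjusted p under 0.05, and 0 passed after adjustment. The genes share the same 6 libraries and largely the same cells. Between the sham groups all 12 lay below 0 as well, with a median of -0.22, and edgeR gave 1 an unadjusted p under 0.05. The summed oligodendrocyte markers were 11635 to 18537 CPM in ICH-Fabp4fl_fl mice and 4525 to 7399.9 CPM in ICH-Fabp4CKO mice, with sham mice of both genotypes between 5161 and 9147 CPM. Over the 12 libraries the log2 level of Olig1 had a Pearson r of 0.95 with this sum and Olig2 one of 0.90. It was 0.88 for Sox10, 0.84 for Myrf, 0.82 for Bcas1, 0.68 for Nkx2-2 and 0.57 for Pdgfra. The lowest were 0.35 for Enpp6, 0.07 for Cspg4 and -0.14 for Gpr17. The amount of white matter in each tissue piece was not measured, and its part in these differences was not tested.

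**Figure D3:**
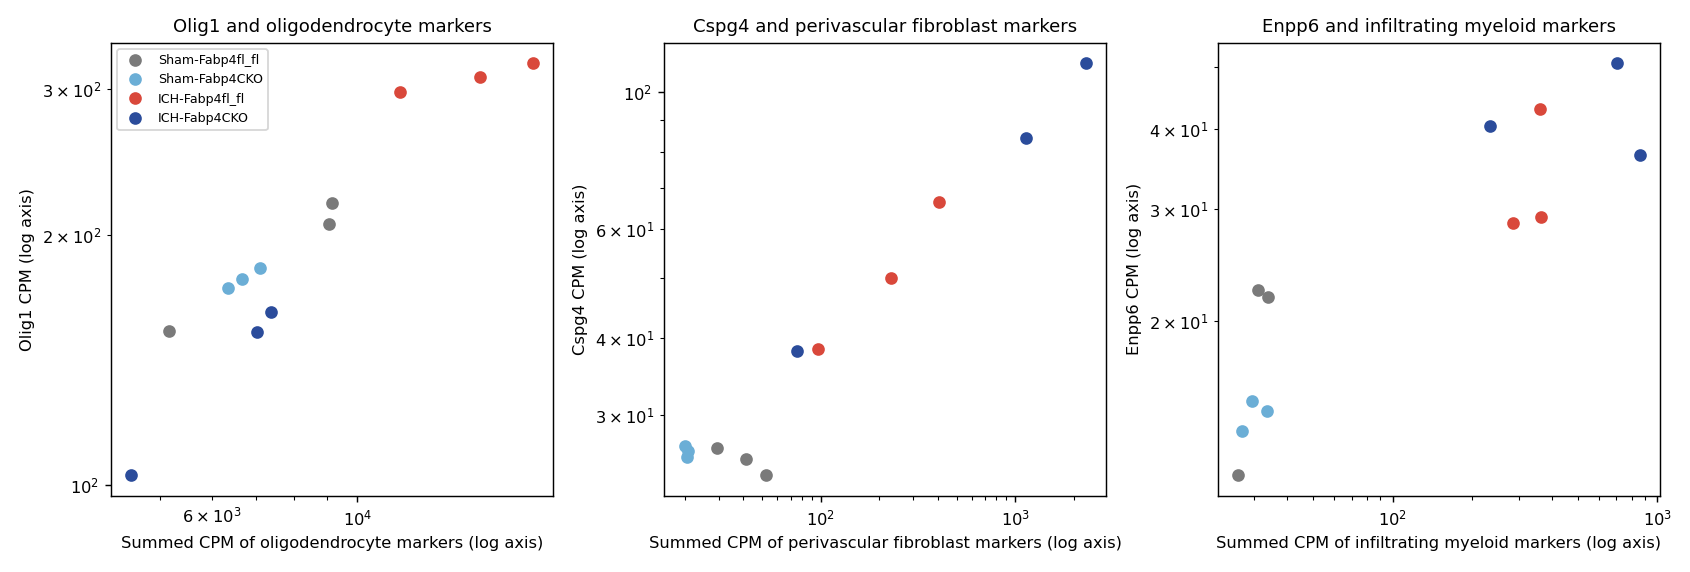
Level of Olig1, Cspg4 and Enpp6 (vertical log axes, CPM) against the summed level of oligodendrocyte, perivascular fibroblast and infiltrating myeloid markers (horizontal log axes, CPM), 1 point a library, colored by group. Olig1 followed the oligodendrocyte sum across all 12 libraries. Cspg4 and Enpp6 were both split between sham and ICH libraries. Cspg4 followed the fibroblast sum among the ICH libraries but not among the sham libraries.

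The interaction asked whether the response to ICH differed between the genotypes, in 1 model of all 12 libraries. By edgeR 0 of the 10 genes passed, beside 0.0199% of the 15089 genes tested (3 genes, 0.0133% higher and 0.00663% lower). At an unadjusted p under 0.05 there were 4 of the 10 and 9.94% of all genes. These 4 were again Olig1, Nkx2-2, Olig2 and Sox10. The interaction of Olig1 was -1.04 (SE 0.26, unadjusted p = 0.00220, adjusted p = 0.265), with Nkx2-2 at -0.86 (SE 0.23, unadjusted p = 0.00335, adjusted p = 0.291), Olig2 at -0.69 (SE 0.19, unadjusted p = 0.00354, adjusted p = 0.291) and Sox10 at -0.68 (SE 0.26, unadjusted p = 0.0239, adjusted p = 0.417). A negative value means a smaller rise, or a fall, after ICH in the knockout. DESeq2 called Olig1 (adjusted p = 0.0205), and edgeR without ICH-Fabp4CKO mouse 2 called it too (-1.16, adjusted p = 0.0471), with adjusted p-values of Olig1 from 0.0205 to 0.593 over all alternatives. Without ICH-Fabp4CKO mouse 1 the interaction was -1.09 for Olig1 and -0.76 for Olig2, and without ICH-Fabp4fl_fl mouse 1 it was -0.99 and -0.62, with neither gene called. Enpp6 was at 0.72 (SE 0.36, adjusted p = 0.543) and Cspg4 at 0.55 (SE 0.45, adjusted p = 0.712). So the calls of Olig1, Sox10 and Nkx2-2 in Fabp4fl_fl mice and of Enpp6 in Fabp4CKO mice were not shown to be particular to a genotype.

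**Figure D4:**
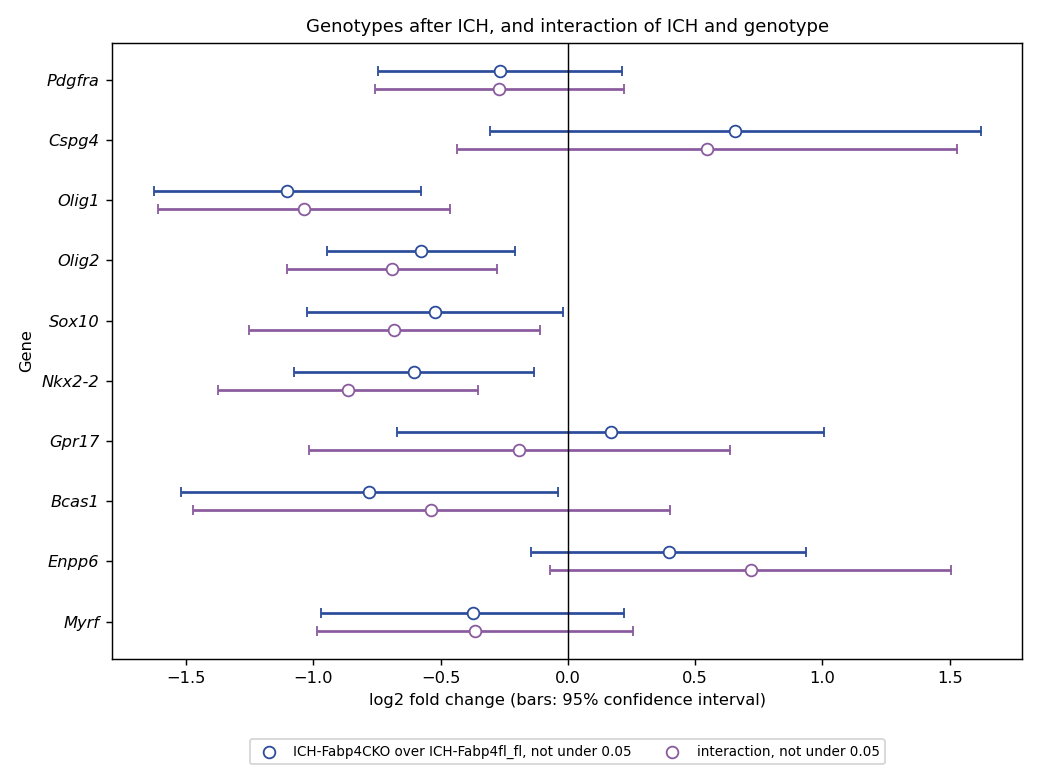
Log2 fold change of ICH-Fabp4CKO over ICH-Fabp4fl_fl mice and the interaction of ICH and genotype (horizontal axis) for the 10 lineage genes (vertical axis), with 95% confidence intervals as bars. All points are open, since 0 of the 10 passed in either test, and the intervals of Olig1, Olig2, Sox10 and Nkx2-2 lay below 0 in both.

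Between the sham groups, 0 of the 10 genes passed, beside 0.111% of the 14395 genes tested (16 genes, all lower in Sham-Fabp4CKO mice). At an unadjusted p under 0.05 there was 1 of the 10, Gpr17, and 10.2% of all genes. Gpr17 was at 106, 120.4 and 98.7 CPM in Sham-Fabp4CKO mice, above the 79.4 to 94.7 CPM of Sham-Fabp4fl_fl mice (log2 0.32, SE 0.11, adjusted p = 0.477). Nkx2-2 was the other gene without overlap (log2 0.22), and 14.8% of all genes tested had none. The other 8 overlapped, with log2 differences from -0.36 (Enpp6) to 0.11 (Sox10). Sham-Fabp4fl_fl mouse 3 decided this comparison, since without it 4 of the 10 were called: Gpr17 higher (0.39, adjusted p = 0.0288), and Olig1 (-0.24, adjusted p = 0.0465), Bcas1 (-0.55, adjusted p = 0.00190) and Enpp6 (-0.61, adjusted p = 0.00536) lower. Without it 1531 of all genes were called higher and 1331 lower. That mouse also had the lowest oligodendrocyte sum of the sham mice, 5161 CPM.

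Ratios within a library do not depend on its depth or scaling. They set genes of the lineage against each other, and none of these genes is private to 1 stage in bulk tissue. The counts of Enpp6 to Olig1 were 0.0748 to 0.109 in Sham-Fabp4fl_fl mice and 0.0781 to 0.0846 in Sham-Fabp4CKO mice. They were 0.0905, 0.139 and 0.0961 in ICH-Fabp4fl_fl mice and 0.332, 0.250 and 0.355 in ICH-Fabp4CKO mice, so that the 3 ICH-Fabp4CKO libraries lay above the other 9. A like order was seen for Enpp6 to Myrf, at 0.0920 to 0.142 in Sham-Fabp4fl_fl, 0.0986 to 0.107 in Sham-Fabp4CKO, 0.164 to 0.180 in ICH-Fabp4fl_fl and 0.256 to 0.343 in ICH-Fabp4CKO mice. For Enpp6 to Pdgfra it was 0.307 to 0.368 in ICH-Fabp4fl_fl and 0.378 to 0.721 in ICH-Fabp4CKO mice. Ratios of the other committed-stage genes overlapped between the ICH groups. Bcas1 to Myrf was 3.40 to 6.83 in ICH-Fabp4fl_fl and 2.93 to 4.30 in ICH-Fabp4CKO mice, and Gpr17 to Pdgfra 0.731 to 1.58 and 1.51 to 1.99. For Olig1 to Olig2 the 3 ICH-Fabp4fl_fl libraries stood above the other 9, with 2.85 to 3.88 in ICH-Fabp4CKO mice. These ratios were chosen after the levels were seen and carry no test.

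**Figure D5:**
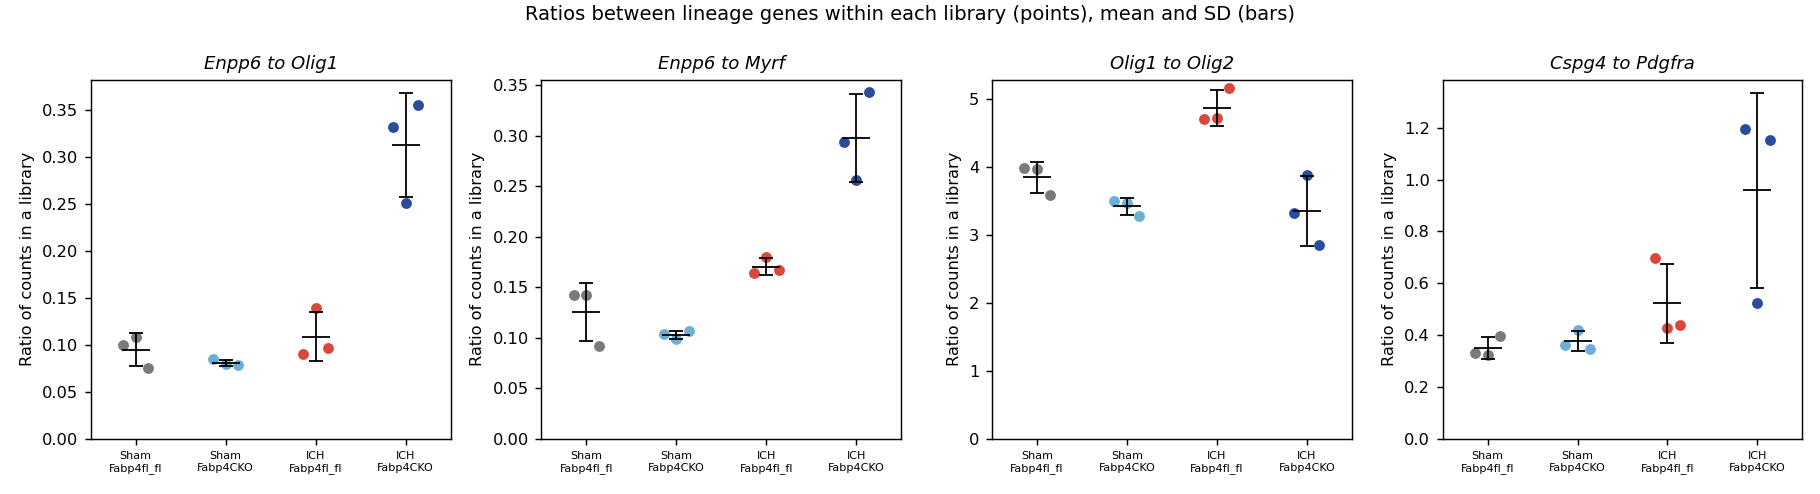
Ratio of the counts of 2 lineage genes within each library (vertical axes, from 0) by group, with points for mice and bars for mean and SD, 3 mice a group. Enpp6 to Olig1 and Enpp6 to Myrf were highest in the 3 ICH-Fabp4CKO mice, Olig1 to Olig2 in the 3 ICH-Fabp4fl_fl mice.

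Across the 12 libraries, the log2 levels of the 10 genes were unevenly alike. The pair most alike was Olig1 and Olig2 (Pearson r 0.94), followed by Sox10 and Bcas1 (0.91), and the least alike was Olig2 and Gpr17 (-0.26). Among all genes tested, the gene most like Olig1 was S1pr5 (0.98), a sphingosine 1-phosphate receptor of oligodendrocytes, and the one most like Olig2 was Nkx6-2 (0.95), a homeobox gene of the list of differentiation-stage genes. For Myrf it was Serinc5 (0.96), for Sox10 Adamtsl4 (0.96), for Bcas1 Golga7 (0.98) and for Pdgfra Cldn34c1 (0.95). Cspg4 was most like Sdcbp (0.99), Nkx2-2 most like Gzma (0.95), Gpr17 most like Pcdhgc3 (0.91) and Enpp6 most like Il33 (0.97), a cytokine gene that oligodendrocytes and astrocytes express. These coefficients share the group differences and the libraries, and they are descriptions without a test.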

How the data were processed

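RNA was measured by polyA RNA-seq of bulk tissue from 12 mice, 3 in each of 4 groups taken from the sample titles. The authors aligned the reads and deposited estimated counts per gene with no normalization, of which 7.36% to 8.69% per library were not whole. The submitters' processing notes name Bowtie2 2.2.8, HISAT2, StringTie 1.3.1 and DESeq2. The counting tool and the genome build were not given in the sources used here, so the only coordinates printed are those of RefSeq promoters on GRCm38.p6, and lengths are from GENCODE M21. Rounded counts were fitted with edgeR 4.0.16 under R 4.3.3 (TMM scaling, filterByExpr at its limits of 10 counts and 15 in total, quasi-likelihood test) on the 6 libraries compared, or all 12 for the interaction, with Benjamini-Hochberg adjustment over all genes and a threshold of 0.05. The fits were tested on simulated data. ICH-Fabp4fl_fl against Sham-Fabp4fl_fl recovered 0 of 67 changes of 1.5-fold, 16 of 67 of 2-fold and 58 of 66 of 4-fold. Both comparisons with ICH-Fabp4CKO mice recovered 0 of 67 at 1.5-fold, 0 or 2 of 67 at 2-fold and 30 or 39 of 66 at 4-fold. The sham groups recovered 9 of 67 at 1.5-fold and 49 of 67 at 2-fold. So a gene not called in any comparison may still differ. The simulation changed far fewer genes than were called between ICH and sham, so its adjustment for multiple tests differs. Alternatives were DESeq2 1.42.0, other scalings and filters, unrounded counts, 1 fit of all libraries, a replicate block and leaving out each mouse. Replicates of a group all differed by more than sampling noise.

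Alikeness used log2(CPM + 0.5). Marker correlations used log2 of the CPM and log2 of the summed CPM, with nothing added. The 10 genes and all lists were chosen with earlier results of these data known. All 10 genes are described. In the myelin and oligodendrocyte lists 1 further gene is not reported here and entered no count or sum. In each list, the called gene with the largest rise and the one with the largest fall were named, with up to 3 more of a member's pathway. Nrg1 has 2 rows in the table, of which 1 was tested.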

Additional observations from a re-analysis of the deposited data

Results flagged for a closer look

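For Olig1 and Olig2 the ICH mice of the 2 genotypes lay on opposite sides of their sham means. This pattern was looked for among the 10 genes only, and its share over all genes was not computed. By edgeR, 9.94% of all genes had an unadjusted interaction p under 0.05, and 19.7% did not overlap between the ICH groups. For Olig1 every ICH-Fabp4fl_fl mouse lay above the mean log2 level of its sham group (by 0.76, 0.70 and 0.64) and every ICH-Fabp4CKO mouse below its own (-0.22, -0.14 and -0.79). The interaction was -1.04 on the log2 scale (SE 0.26, unadjusted p = 0.00220, adjusted p = 0.265). For Olig2 the mice were 0.46, 0.41 and 0.21 above in Fabp4fl_fl and at -0.17, -0.32 and -0.53 in Fabp4CKO, and the interaction was -0.69 (SE 0.19, unadjusted p = 0.00354, adjusted p = 0.291). Neither interaction passed edgeR's quasi-likelihood test after Benjamini-Hochberg adjustment over all genes. That of Olig1 passed with DESeq2 (adjusted p = 0.0205) and with edgeR without ICH-Fabp4CKO mouse 2 (adjusted p = 0.0471), and its adjusted p-values ran up to 0.593 over all alternatives, so the call depends on the setting. The summed oligodendrocyte markers were 11635 to 18537 CPM in ICH-Fabp4fl_fl mice (sham 5161 to 9147) and 4525 to 7399.9 CPM in ICH-Fabp4CKO mice (sham 6359 to 7122), and their part in these values was not tested.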

How the results depend on the processing

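With 3 mice a group, a gene that was not called is not shown to be unchanged, and the lowest of the 10 genes, Nkx2-2, had a level of 6.96 CPM or more in every library. Other scalings (RLE, total counts), both filters and unrounded counts left the number of genes called among the 10 as reported in each comparison. For ICH-Fabp4fl_fl against Sham-Fabp4fl_fl (5 called), DESeq2 called 6, the fit of all 12 libraries called 8, and leaving out each mouse gave 2 to 7. Over all genes, 3862 higher and 2845 lower became 3940 and 3645 with DESeq2, and 4370 and 3020 with the 12-library fit. Leaving out each mouse gave 2633 to 4309 higher and 1465 to 3856 lower. For ICH-Fabp4CKO against Sham-Fabp4CKO (3 called), DESeq2 called 5, the fit of all 12 libraries called 2, and leaving out each mouse gave 1 to 6. For ICH-Fabp4CKO against ICH-Fabp4fl_fl (0 called), DESeq2 and the fit of all 12 libraries each called 2, and leaving out each mouse gave 0 to 0. Over all genes, DESeq2 called 228 higher and 288 lower there, and the 12-library fit 154 and 208. For the interaction (0 called), DESeq2 called 1 and leaving out each mouse gave 0 to 1. Over all genes, DESeq2 called 164 higher and 71 lower, and edgeR without ICH-Fabp4CKO mouse 2 called 260 and 111. For Sham-Fabp4CKO against Sham-Fabp4fl_fl (0 called), DESeq2 called 0 and leaving out each mouse gave 0 to 4. Over all genes, the number higher in ICH-Fabp4CKO than in Sham-Fabp4CKO mice (3605) ran from 701 to 5203 when 1 mouse was left out. In that comparison DESeq2 called 4229 of all genes higher and 3421 lower, and the 12-library fit 4171 and 2558. Apart from leaving out mice, the cause of these changes was not tested.

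The titles number the libraries 1 to 3 in each group. Only those of ICH-Fabp4fl_fl carry a second number, a 1 in each, and its meaning is not given. No comparison had a correlation of deviations over 0.1 in every pair of same-numbered libraries. Between ICH-Fabp4fl_fl and Sham-Fabp4fl_fl the correlations were all positive, at 0.196, 0.0230 and 0.127. The numbers were not used as pairs in the reported tests. With the replicate number as a block, 7 of the 10 genes were called in ICH-Fabp4fl_fl against Sham-Fabp4fl_fl mice (5 without it), 3 in ICH-Fabp4CKO against Sham-Fabp4CKO, and 0 in the other comparisons. Over all genes, the block gave 3967 higher and 3295 lower in the first of these, and 2579 and 1105 in the second. In that first comparison 5 of 6 libraries correlated best with their own number, a hint from the data and not from the design.

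Estimates that turned sign were not called. When each mouse was left out, log2 differences between the sham groups ran from -0.095 to 0.028 for Pdgfra, from -0.026 to 0.13 for Olig2, from -0.019 to 0.20 for Sox10 and from -0.14 to 0.017 for Myrf. For ICH-Fabp4CKO against Sham-Fabp4CKO, Myrf ran from -0.089 to 0.22, and it was at -0.00335 with total counts. Gpr17 ran from -0.15 to 0.48 between the ICH groups and from -0.47 to 0.13 in the interaction, the extremes being without ICH-Fabp4fl_fl mouse 1 or mouse 2.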
